A study of Mus musculus with 24 samples.

Results

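Cytochrome c oxidase (complex IV) has several nuclear-encoded subunits that exist as alternative isoforms from separate genes, and 8 such genes, forming 4 pairs, were followed in C2C12 cells. They were chosen by name, as the rows for the ubiquitous isoforms Cox4i1, Cox6a1, Cox7a2 and Cox8a and for their restricted counterparts Cox4i2, Cox6a2, Cox7a1 and Cox8b, out of 24043 gene rows in the deposited expression table. All 8 were present. C2C12 is an established mouse myoblast line, so every group is the same line, and whether each letter is a separate culture is told only by the design text, which calls the replicates biological. The 4 groups were growth medium (GM, with 10% fetal bovine serum) or differentiation medium (DM, with 2% horse serum and an insulin, transferrin and selenium supplement), each at 21% oxygen (NOR) or 2% oxygen (HYP), with libraries A and B in each group. The labels name no altered gene and no drug, so the groups are described by medium and oxygen alone. The comparisons ask how the response of the isoform genes to differentiation medium depends on oxygen. Of 24 samples in the series, the 8 RNA-seq libraries were used, while the 8 for the histone mark H3K27me3 and their 8 inputs were not analysed here.

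Complex IV is the terminal enzyme of the mitochondrial respiratory chain, where it passes electrons from cytochrome c to oxygen and pumps protons. Its catalytic core is encoded in mitochondrial DNA, and the nuclear subunits around the core set its assembly, stability and regulation. In striated muscle the products of Cox6a2, Cox7a1 and Cox8b take the place of the ubiquitous forms Cox6a1, Cox7a2 and Cox8a as fibres mature. Cox4i2 is an isoform of subunit 4 known from lung and oxygen-sensing cells, and its transcription is induced by low oxygen in some cell types. The genes for the mitochondrial subunits were not analysed here.

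Levels are in FPKM, fragments scaled to transcript length and to library depth, so levels of different genes are compared per unit of length. Relative depth, estimated from the steps between low values, ranged from 0.633 (hypoxic differentiation B) to 1.00 (hypoxic differentiation A). Replicates correlated across genes with Pearson's r of 0.958 to 0.983, lowest in hypoxic differentiation medium. The skeletal muscle marker list was Myod1, Myf5, Myog, Myh3, Ckm, Des, Acta1 and Tnnt3. It summed to 7688 to 7699 FPKM in normoxic differentiation medium but to 59.4 to 82.0 in hypoxic differentiation medium. In growth medium it summed to 344 to 415 in normoxia and 98.2 to 105 in hypoxia. The sums in hypoxic differentiation medium thus lay below those of both growth medium groups. The word differentiation in a group or comparison name therefore means the medium, not a state that the cells reached. Of the 8 muscle markers, 7 rose with differentiation in normoxia, beside 25.5% of all tested genes. With differentiation medium in hypoxia 3 were higher and 1 lower, beside 23.3% and 17.6%. All 8 were lower in hypoxia in either medium, beside 28.0% of tested genes in growth and 27.7% in differentiation medium. The 8 proliferation markers summed to 33.9 in hypoxic differentiation A but 201 in hypoxic differentiation B, so those libraries stand apart from each other. Hypoxia response markers summed to 4108 to 5508 in the hypoxic libraries and 766 to 1376 in the normoxic ones. Marker lists of other cell types were summed as well. The adipocyte list summed to at most 6.64 FPKM with Plin1 at 0 throughout, but Pparg had 1.46 to 5.37 FPKM. Fabp4 reached 1.18 and Elovl3 1.02. The cardiac list summed to at most 10.8 with Nppa and Hand2 at 0, but Gata4 had 2.58 to 8.38 FPKM. Tnni3 reached 2.81, Nkx2-5 2.18 and Myh6 1.04. The endothelial list summed to at most 0.632 with Emcn at 0. The macrophage list summed to 3.96 to 15.2 in 6 libraries and to 33.7 and 54.8 in hypoxic differentiation medium. Cd68 made up 25.8 and 42.8 FPKM of the last sums and Cd14 7.20 and 11.4. Cd14 had 9.90 to 11.1 FPKM in growth medium and 1.81 and 1.79 in normoxic differentiation medium. The other 6 of the 8 macrophage genes, among them Ptprc, Csf1r and Lyz2, stayed under 1 FPKM in every library, with Fcgr1 at 0. The part of the muscle, proliferation, hypoxia and macrophage lists in the results below was not tested.

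Promoters are shown for members with large changes, where a window was available. Cox6a2, whose change was the largest, had none. The levels below are per gene and refer to no particular start site. RefSeq windows (GRCm38.p6) were matched for 5 of the 8 genes, and the 250 bases before the start are printed for the restricted isoforms Cox7a1 and Cox8b and for Cox6a1, the ubiquitous gene that changed most. Capitals mark any match on either strand to the E-box CAGCTG bound by myogenic factors, the ETS core CTTCCGG, the TATA motif TATAAA or the hypoxia-response core ACGTG. Cox4i1, Cox4i2 and Cox6a2 are named only.
Cox7a1, chr7:30183921-30184170, plus strand: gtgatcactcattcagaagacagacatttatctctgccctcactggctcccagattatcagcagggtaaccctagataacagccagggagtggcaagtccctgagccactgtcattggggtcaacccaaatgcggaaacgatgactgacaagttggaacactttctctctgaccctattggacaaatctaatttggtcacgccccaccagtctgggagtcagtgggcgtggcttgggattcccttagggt
Cox8b, chr7:140900447-140900696, minus strand: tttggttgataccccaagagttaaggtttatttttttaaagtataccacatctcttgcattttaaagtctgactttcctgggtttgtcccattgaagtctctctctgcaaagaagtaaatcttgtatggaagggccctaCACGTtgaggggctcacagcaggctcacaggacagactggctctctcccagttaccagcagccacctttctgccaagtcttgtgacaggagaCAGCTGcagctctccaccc
Cox6a1, chr5:115348959-115349208, minus strand: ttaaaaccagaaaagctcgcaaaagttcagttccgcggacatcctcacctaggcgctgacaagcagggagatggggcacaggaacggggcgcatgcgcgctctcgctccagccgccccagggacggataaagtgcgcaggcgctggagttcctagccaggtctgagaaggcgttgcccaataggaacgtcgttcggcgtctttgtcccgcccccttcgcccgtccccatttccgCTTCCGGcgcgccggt
The Cox8b window holds 1 E-box and 1 hypoxia-response core, the Cox6a1 window 1 ETS core, and the Cox7a1 window none of these letters. The Cox7a2 and Cox8a windows held no match either. Among 32851 windows of the same length, 13% held the E-box, 16.6% the hypoxia-response core, 6.91% the ETS core and 12.4% the TATA motif, so each match is common. The motifs do not overlap one another in these windows. G and C made up 62.8% of the Cox6a1 window, 51.2% of the Cox7a1 window and 47.2% of the Cox8b window, against a median of 52.4% over all windows. A match describes letters and is neither a binding site nor a cause.

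Differentiation in normoxia brought up the 3 muscle isoforms from near absence to 0.404 to 2.54 times the level of their ubiquitous partners. Cox6a2, the muscle form of subunit 6A, stood at 0.274 and 0.106 FPKM in the A and B libraries of normoxic growth medium, and at 495 and 425 after differentiation in normoxia. Those growth-medium values rest on 2 and 1 fragments, against 3548 and 3826 after differentiation. The depth-adjusted ratio of fragments was 2546, with a 95% counting interval of 871 to 12347 that covers counting error only. The groups were far apart, and the limma change on the log2(FPKM + 1) scale, which understates the rise of a gene so low, was 8.60 ± 0.25 (SE, adjusted p = 8.39e-07).

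Cox8b, the muscle form of subunit 8, rose from 7.52 and 4.89 FPKM to 325 and 401, or 58.5-fold. Its log2 change was 5.68 ± 0.31 (adjusted p = 1.23e-05), and both differentiated libraries lay above both growth-medium libraries. Cox7a1, the muscle form of subunit 7A, rose from 1.17 and 2.70 FPKM to 74.3 and 72.1, or 37.9-fold, with a log2 change of 4.71 ± 0.40 (adjusted p = 8.10e-05). It ended lowest of the 3 per unit of length, at 73.2 ± 1.53 FPKM (SD, n = 2) against 460.0 ± 49.2 for Cox6a2 and 363 ± 53.4 for Cox8b. In bulk RNA, fewer cells of a type and less RNA per cell cannot be told apart, and this holds for every level here.

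**Figure D1:**
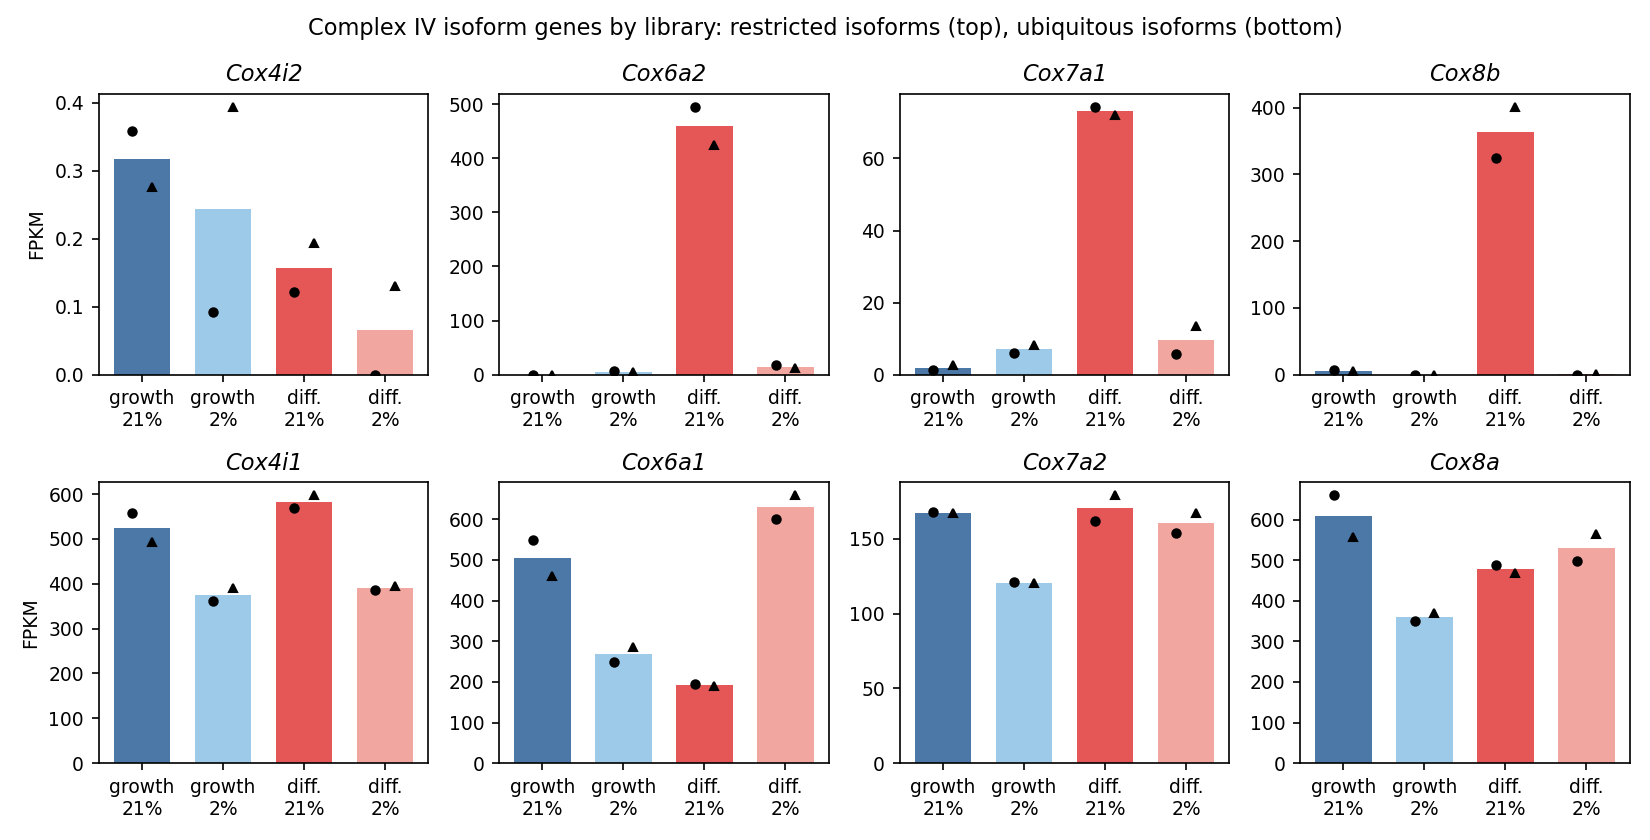
FPKM of the 8 isoform genes in each library, with restricted isoforms in the top row and their ubiquitous partners below. Bars are means of 2 libraries, circles are A and triangles B, each panel has its own vertical axis, and the x axis gives the medium and oxygen level. The bars for Cox6a2, Cox7a1 and Cox8b tower in normoxic differentiation medium, while the whole Cox4i2 axis ends near 0.4 FPKM.

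The ubiquitous partners did not follow a common course. Cox6a1, the ubiquitous form of subunit 6A, was 548 and 461 FPKM in normoxic growth medium and 195 and 191 after normoxic differentiation, so that it fell as Cox6a2 rose. The groups did not overlap, and Cox6a1 was 2.61-fold lower (log2 change -1.38 ± 0.12, adjusted p = 7.79e-05). Cox8a, the ubiquitous form of subunit 8, moved from 660 and 556 FPKM to 488 and 468, with a log2 change of -0.34 ± 0.11 (adjusted p = 0.0339). That call was lost with the 2 other scalings, with no filter on low values and without any 1 of normoxic growth medium A, either normoxic differentiation library or either hypoxic growth library (-0.06 to -0.37, adjusted p of 0.0516 to 0.638 over these settings). Cox7a2, the ubiquitous form of subunit 7A, was 168 and 167 FPKM before and 162 and 179 after (log2 change 0.02, 95% interval -0.17 to 0.21, adjusted p = 0.850). Cox4i1, the ubiquitous form of subunit 4, was 557 and 492 FPKM before and 568 and 597 after (log2 change 0.15, interval -0.07 to 0.38, adjusted p = 0.189).

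Among the 7 members that passed the low-value filter, 3 were higher and 2 lower in this comparison, beside 25.5% of all tested genes higher and 41.0% lower. The median log2 change was 5.68 for the 3 tested restricted isoforms and -0.16 for the 4 ubiquitous ones, against -0.20 for all genes. Cox4i2 did not pass the filter, and without a filter 3 of the 8 were higher and 1 lower. Median-of-ratios scaling moved the median of all genes to 0.02 and the split of calls from 3161 higher and 5080 lower to 4298 higher and 3784 lower. Under that scaling the small changes of Cox4i1 (0.43, adjusted p = 0.0130) and Cox7a2 (0.29, adjusted p = 0.0187) were called higher. The changes of the 3 muscle isoforms and of Cox6a1 are much larger than this shift.

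The share of the restricted isoform in the summed FPKM of its pair gives the balance within the pair. A share also rises where an isoform is added to an unchanged partner. From normoxic growth to normoxic differentiation medium, the mean pair totals went from 505 to 653 FPKM for Cox6a, from 614 to 841 for Cox8 and from 169.7 to 243 for Cox7a. Cox6a2 made up 0.05% and 0.0229% of its pair in normoxic growth medium and 71.8% and 69.0% in normoxic differentiation medium, so that it became the more abundant form. Cox8b went from 1.13% and 0.872% to 40% and 46.1%. Cox7a1 went from 0.688% and 1.59% to 31.5% and 28.8%. In both latter pairs the ubiquitous gene remained the larger in each library, by at least 1.17 times over Cox8b and at least 2.18 times over Cox7a1. The log2 ratio within the pair was higher by 12.07 for Cox6a2 over Cox6a1, 6.21 for Cox8b over Cox8a and 5.26 for Cox7a1 over Cox7a2. The test used for these ratios, an exact permutation of 2 against 2 libraries, cannot go below p = 0.333, which each reached (two-sided). Each ratio was taken after adding 0.1 FPKM to both genes. With 0.5 and 1 FPKM added instead, the change for Cox6a2 over Cox6a1 was 10.77 and 9.97.

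**Figure D2:**
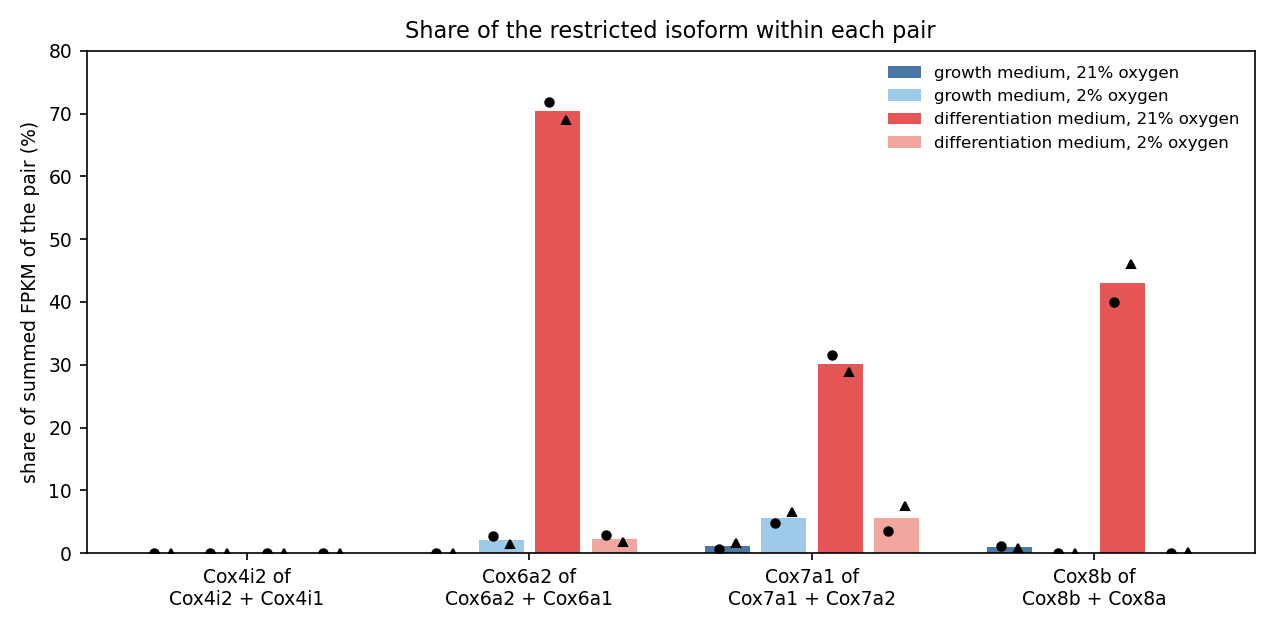
Share of the restricted isoform in the summed FPKM of each pair, in percent, by medium and oxygen level. Bars are means of 2 libraries, circles A and triangles B. Cox6a2 averages 70.4%, Cox8b 43.1% and Cox7a1 30.1% in normoxic differentiation medium, and no other bar passes 5.63%.

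In differentiation medium the totals of the pairs took different courses between oxygen levels. The Cox6a pair summed to 653 ± 51.6 FPKM (SD, n = 2) in normoxic and 644 ± 37.2 in hypoxic differentiation medium, with overlapping libraries, although Cox6a2 held 70.4% of the first total and 2.33% of the second. The Cox8 pair summed to 841 ± 39.1 FPKM in normoxic differentiation medium and to 531 ± 47.7 in hypoxic differentiation medium. The Cox7a pair summed to 243 ± 10.6 and 170.1 ± 15.1 FPKM in the same groups. The Cox8 and Cox7a totals thus did not overlap between oxygen levels in differentiation medium, and those of the Cox6a pair did. The Cox4 pair averaged 583 FPKM in normoxic and 390.1 in hypoxic differentiation medium. In growth medium the mean total of every pair was lower in hypoxia. It went from 505 to 274 FPKM for Cox6a, 614 to 361 for Cox8, 169.7 to 128 for Cox7a and 525 to 376 for Cox4.

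In hypoxic cells the muscle isoforms stayed far below the levels reached after differentiation in normoxia. Hypoxic differentiation medium held Cox6a2 at 18.2 and 11.6 FPKM, Cox7a1 at 5.66 and 13.6 and Cox8b at 0 and 0.869. Compared with normoxic differentiation medium, Cox6a2 was 30.9-fold lower (log2 change -4.89 ± 0.25, adjusted p = 7.99e-06) and Cox7a1 7.58-fold lower (-2.91 ± 0.40, adjusted p = 0.000748). Cox8b fell most, from 808 and 1249 fragments to 0 and 2, a depth-adjusted ratio of 1091 with a 95% counting interval of 302 to 9017 (log2 change -8.05 ± 0.31, adjusted p = 2.47e-06). For all 3 the libraries of the oxygen levels did not overlap. Without hypoxic differentiation B, which holds the higher proliferation markers, the log2 changes were -4.58, -3.48 and -8.50 for Cox6a2, Cox7a1 and Cox8b, and without A they were -5.19, -2.34 and -7.60, each still called. The skeletal muscle markers fell with them, as given above, and the part of that fall in these changes was not tested.

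Cox6a1 moved the other way in this comparison. It stood at 600 and 659 FPKM in hypoxic differentiation medium against 195 and 191 in normoxic, 3.26-fold higher (log2 change 1.70 ± 0.12, adjusted p = 2.96e-05), with no overlap. Cox4i1 was 1.49-fold lower at 385 and 395 against 568 and 597 FPKM (-0.58 ± 0.09, adjusted p = 0.00162). Cox7a2 (-0.08, 95% interval -0.28 to 0.11, adjusted p = 0.385) and Cox8a (0.15, interval -0.12 to 0.42, adjusted p = 0.282) did not pass the test. In all, 1 of 7 members was higher and 4 were lower, where 37.5% of tested genes were higher and 27.7% lower. Those shares correspond to 4644 and 3431 genes, which median-of-ratios scaling turned into 3763 and 4298, with Cox7a2 then called lower (-0.29, adjusted p = 0.0195).

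**Figure D3:**
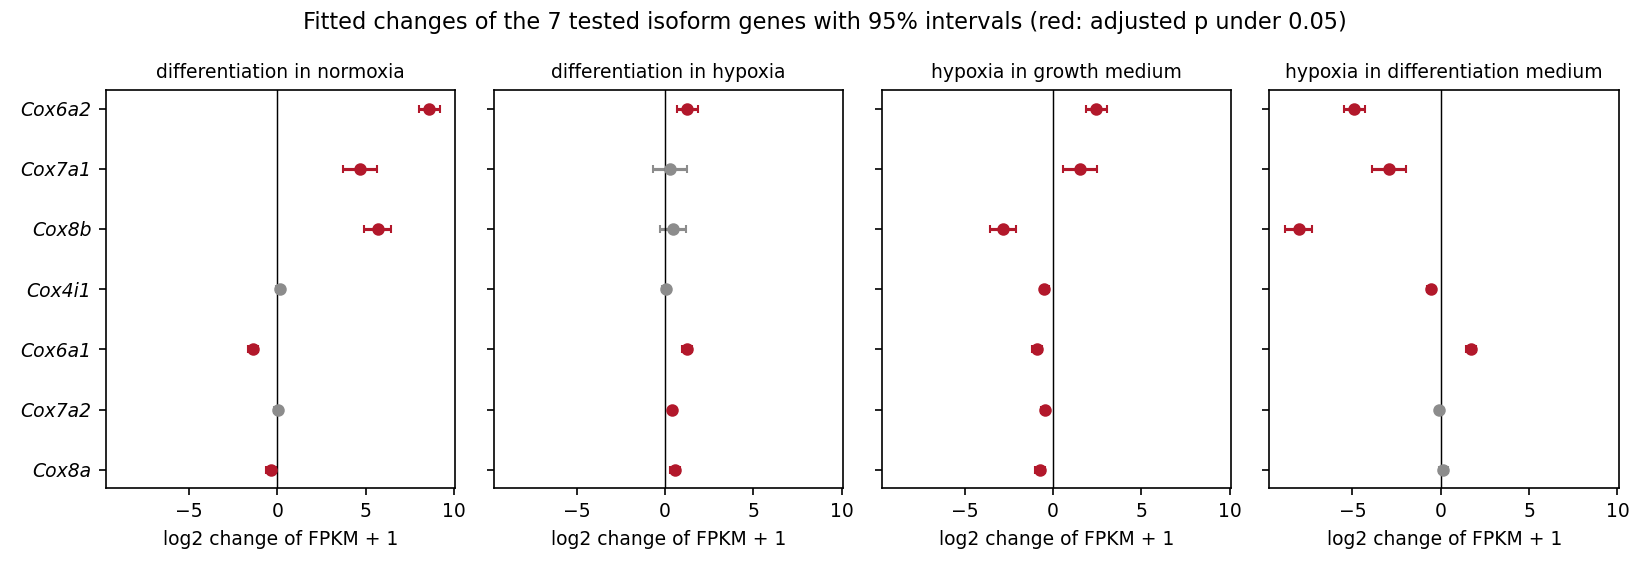
Fitted log2 change of FPKM + 1 (x axis) with 95% intervals for the 7 tested isoform genes (y axis) in 4 comparisons. Red marks an adjusted p under the threshold of 0.05, grey the rest. The muscle isoforms lie at 4.71 to 8.60 for differentiation in normoxia and at -2.91 to -8.05 for hypoxia in differentiation medium, while Cox6a1 takes the opposite sign in both.

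Within hypoxia, 4 of 7 members were called higher in differentiation medium, by 1.33- to 2.64-fold. Cox6a2 rose from 6.84 and 4.42 to 18.2 and 11.6 FPKM, 2.64-fold (log2 change 1.25 ± 0.25, adjusted p = 0.00860). That call was lost without hypoxic growth medium B (0.99, adjusted p = 0.0566). Cox6a1 rose 2.35-fold, from 250.2 and 286 to 600 and 659 FPKM (1.23 ± 0.12, adjusted p = 0.000707). Cox8a (1.47-fold, adjusted p = 0.00984) and Cox7a2 (1.33-fold, adjusted p = 0.00873) were higher as well, but both calls were lost without either hypoxic growth medium library (adjusted p of 0.0522 to 0.0721). Cox7a1 (0.28, 95% interval -0.68 to 1.24, adjusted p = 0.616), Cox8b (0.45, interval -0.29 to 1.20, adjusted p = 0.290) and Cox4i1 (0.06, interval -0.17 to 0.28, adjusted p = 0.677) did not pass. So 4 of 7 members were higher and 0 lower by limma, beside 23.3% and 17.6% of tested genes, and the 4 became 2 without hypoxic growth medium A and 1 without B. Without hypoxic differentiation A, whose 0 is then gone, Cox8b was called as well (0.90, adjusted p = 0.0214), and without B its change was 0.00 and that of Cox7a1 -0.29 (adjusted p = 0.502). All 7 fitted changes were above 0, so that no member was lower at an unadjusted p under 0.05 either. The isoform share stayed at 2.09% and 2.33% for Cox6a2 and at 5.63% and 5.55% for Cox7a1 before and after.

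Hypoxia in growth medium split the muscle isoforms. Cox6a2 rose from 2 and 1 fragments to 64 and 39, or from 0.274 and 0.106 to 6.84 and 4.42 FPKM. The depth-adjusted ratio was 31.6 (95% counting interval 10.5 to 156), and the log2 change was 2.46 ± 0.25 (adjusted p = 0.000548). Cox7a1 went from 1.17 and 2.70 to 6.06 and 8.35 FPKM, 3.73-fold higher (1.52 ± 0.40, adjusted p = 0.0229). This rests on 3 and 9 against 20 and 26 fragments, and the call was lost without any 1 of normoxic growth medium A, either hypoxic growth medium library or either normoxic differentiation library (adjusted p of 0.0544 to 0.130, with the change at 1.13 to 1.72).

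Cox8b did the reverse. It was 7.52 and 4.89 FPKM (19 and 16 fragments) in normoxic growth medium and 0 in both hypoxic growth libraries. A level of 3 fragments per library corresponds there to 0.954 FPKM on average, so Cox8b was at least 6.51-fold lower (log2 change -2.82 ± 0.31, adjusted p = 0.000774). Neither Cox8b nor the other 2 muscle isoforms overlapped between oxygen levels. The skeletal muscle markers, all 8 lower in this comparison beside 28.0% of all tested genes, went with Cox8b and against Cox6a2 and Cox7a1.

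All 4 ubiquitous genes fell in hypoxic growth medium. Cox6a1 was 1.88-fold lower (adjusted p = 0.00140), Cox8a 1.68-fold (adjusted p = 0.00277), Cox4i1 1.40-fold (adjusted p = 0.00741) and Cox7a2 1.39-fold (adjusted p = 0.00441). For each gene both hypoxic libraries lay below both normoxic ones. The Cox4i1 call was lost with upper-quartile scaling (adjusted p = 0.0631) and without hypoxic growth medium A (adjusted p = 0.0664). With the muscle isoforms, 2 of 7 members were higher and 5 lower, beside 13.5% and 28.0% of tested genes. All genes together had a median of -0.14, and upper-quartile scaling, which set it to 0.00, moved the calls over all genes from 1672 higher and 3463 lower to 2375 and 2462. Median-of-ratios scaling gave 2098 and 2753.

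**Figure D4:**
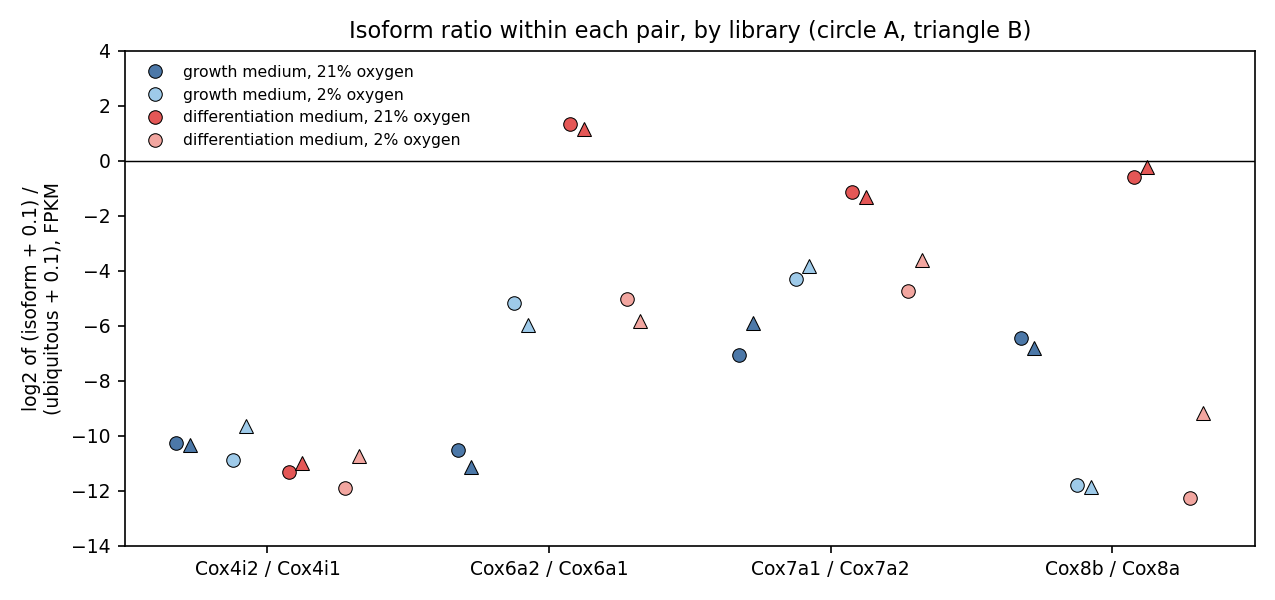
Log2 ratio of restricted over ubiquitous isoform (FPKM, 0.1 added to each) for the 4 pairs in every library, with 0 meaning equal levels. Circles are A, triangles B. The Cox6a2 ratio is above 0 in both normoxic differentiation libraries, and the hypoxic Cox8b ratios lie at -9.19 to -12.28, of which the 3 libraries listed at 0 FPKM are placed by the added 0.1.

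The interaction, the change with differentiation in hypoxia minus that in normoxia, tests whether oxygen altered the response. It was -7.34 ± 0.35 for Cox6a2 (adjusted p = 1.57e-05), -5.22 ± 0.44 for Cox8b (adjusted p = 0.000160) and -4.43 ± 0.57 for Cox7a1 (adjusted p = 0.000908) on the log2 scale. It was 2.61 ± 0.16 for Cox6a1 (adjusted p = 5.09e-05) and 0.89 ± 0.16 for Cox8a (adjusted p = 0.00373). Cox7a2 had 0.39 ± 0.11 (adjusted p = 0.0269), a call that both other scalings, array quality weights and the removal of any 1 of the 4 growth medium libraries or of normoxic differentiation A ended (0.06 to 0.39, adjusted p up to 0.684). Cox4i1 had -0.10, with a 95% interval of -0.42 to 0.22 (adjusted p = 0.558). Thus 3 members had a positive and 3 a negative interaction, beside 35.4% and 18.7% of tested genes, whose median was 0.27. Median-of-ratios scaling moved that median to -0.01 and the calls over all genes from 4390 positive and 2317 negative to 2979 and 3265, and upper-quartile scaling gave 3390 and 2910.

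Averaged over both media, the change of the log2 ratio with hypoxia was -7.77 for Cox8b over Cox8a, the only pair at the smallest p that 2-by-2 libraries permuted within medium allow (exact permutation, two-sided, p = 0.0556, adjusted p = 0.296 over 8 tests). The Cox6a2 ratio averaged -0.72 (exact p = 0.556) and the Cox7a1 ratio -0.27 (exact p = 0.778), each a mean of opposite signs. The difference between oxygen levels in the Cox6a2 ratio, hypoxia minus normoxia, was 5.24 in growth medium and -6.68 in differentiation medium. The same values for the Cox7a1 ratio were 2.41 and -2.96. For Cox8b they were -5.20 and -10.33, so the sign was shared between media. The size of these values depends on the 0.1 FPKM added to each gene, since Cox8b is listed at 0 in 3 of the 4 hypoxic libraries. With 0.5 and 1 added, the Cox8b values were -2.97 and -2.08 in growth medium and -8.92 and -8.20 in differentiation medium, and that of Cox6a2 in growth medium was 4.04 and 3.36.

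Cox4i2 stayed at the limit of detection. In growth medium it had 0.358 and 0.276 FPKM at 21% oxygen and 0.0929 and 0.394 at 2%. In differentiation medium it had 0.121 and 0.193 at 21% and 0 and 0.131 at 2%. These are 15 fragments in all 8 libraries, at most 4 in any 1. Both normoxic growth libraries lay above all 4 differentiation libraries, and the other groups overlapped. The depth-adjusted ratio of hypoxic to normoxic fragments was 0.621, from 6 against 9, with a 95% counting interval of 0.182 to 1.95. That interval pools both media, covers counting error only and sets no limit for either medium alone. Changes between its bounds were not detectable at this depth. Cox4i1 exceeded Cox4i2 by at least 991 times in each of the 7 libraries with a Cox4i2 fragment.

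Genes reported to act on the COX4 isoforms were expressed. Hif1a, the oxygen-labile subunit of the hypoxia-inducible factor, was lower in hypoxia in both media (-0.63 in each, adjusted p = 0.0173 and 0.0104). Lonp1, a mitochondrial matrix protease linked to COX4I1 turnover, rose in hypoxic growth medium from 36.6 and 35.4 to 109 and 107 FPKM (1.56, adjusted p = 4.05e-05). Rbpj, a DNA-binding factor reported at the Cox4i2 promoter, rose there too (1.34, adjusted p = 0.000101). Cxxc5 and Chchd2, partners reported at the same promoter, had changes of 0.42 (adjusted p = 0.102) and -0.66 (adjusted p = 0.00104). Of the 5 genes, 2 rose and 2 fell in hypoxic growth medium, beside 13.5% and 28.0% of all tested genes. In hypoxic differentiation medium 2 rose (Cxxc5 by 1.87 and Lonp1 by 0.45) and 2 fell, near the 37.5% and 27.7% of all tested genes.

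The other nuclear complex IV subunits give the setting for the ubiquitous isoforms. Of 12 listed, 10 were tested, and with differentiation in normoxia 7 rose and 1 fell (median 0.47, against -0.20 for all genes), beside 25.5% and 41.0% of all tested genes. Cox5b, a zinc-binding matrix subunit, rose 1.70-fold from 389.9 and 342 to 587 and 654 FPKM, and Cox7b rose 1.55-fold. Cox6c and Cox7c, small membrane-spanning subunits, rose 1.32- and 1.22-fold. In the same libraries Cox6a1 fell 2.61-fold. The gene lower in this list was Cox6b2, the testis form of subunit 6B, whose levels did not pass 1.59 FPKM. In growth medium 7 of the 10 were lower and 1 higher in hypoxia (median -0.82, against -0.14 for all genes), beside 28.0% and 13.5% of all tested genes. In differentiation medium the counts were again 7 and 1 (median -0.66, against 0.15), beside 27.7% and 37.5%. Cox6a1, at 1.70 in hypoxic differentiation medium, lay on the other side of 0 from those 7.

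**Figure D5:**
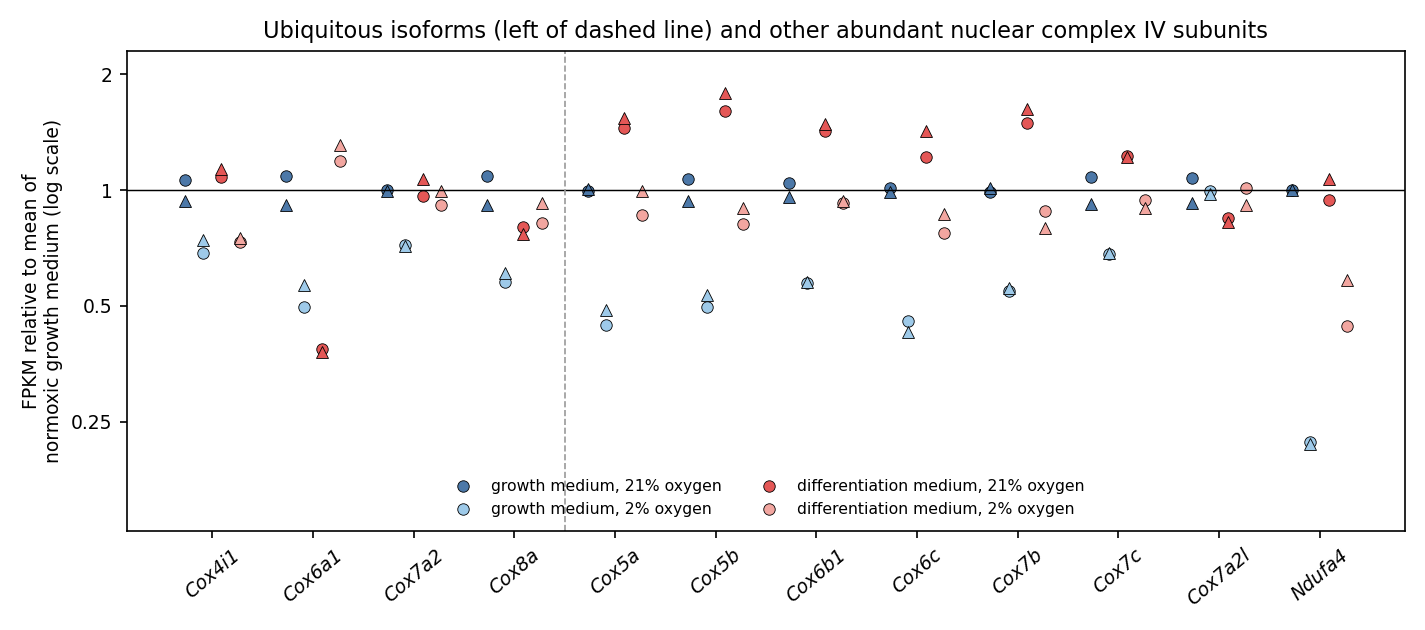
FPKM of the 4 ubiquitous isoform genes and of 8 other nuclear subunit genes in each library, relative to the mean of normoxic growth medium (log scale, line at 1). Circles are A, triangles B. Cox6a1 is lowest in normoxic and highest in hypoxic differentiation medium, whereas Cox5a, Cox5b, Cox6b1, Cox6c, Cox7b and Cox7c are highest in normoxic differentiation medium.

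Ndufa4 and Ndufa4l2 form a further ubiquitous and hypoxia-linked pair attached to complex IV. Ndufa4 fell 4.55-fold with hypoxia in growth medium (-2.18 ± 0.14, adjusted p = 0.000109) and 1.96-fold in differentiation medium (adjusted p = 0.000797). In growth medium Ndufa4l2 had 0.246 and 0.253 FPKM at 21% oxygen and 3.20 and 3.19 at 2%, and in differentiation medium 3.84 and 2.06 at 21% and 19.6 and 6.48 at 2%. It rose with hypoxia in both media (1.75, adjusted p = 0.0208, and 1.69, adjusted p = 0.0145). Its share of the pair was 0.0461% and 0.0474% in normoxic and 2.63% and 2.66% in hypoxic growth medium. In differentiation medium it was 0.760% and 0.359% in normoxia and 7.65% and 2.04% in hypoxia, so the hypoxic libraries differed widely but lay above the normoxic ones. Set beside it, the mean Cox4i2 share was 0.0601% in normoxic and 0.0633% in hypoxic growth medium. In differentiation medium the means were 0.0268% in normoxia and 0.0166% in hypoxia. The hypoxic A and B libraries held 0.0258% and 0.101% in growth medium and 0% and 0.0331% in differentiation medium.

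Of 27 assembly factors, all tested, 13 rose and 2 fell with differentiation in normoxia, beside 25.5% and 41.0% of all tested genes. With hypoxia in differentiation medium 7 rose and 11 fell, beside 37.5% and 27.7%. Smim20, an early assembly factor of the core subunit, rose 5.22-fold in normoxia, from 9.13 and 7.94 to 41.8 and 47.3 FPKM, and stood at 11.5 and 10.7 in hypoxic differentiation medium (-1.91, adjusted p = 1.37e-05). Cox17, a copper chaperone, rose 3.43-fold in normoxia to 324 and 373 FPKM, and Taco1, a translational activator of the core subunit, 2.77-fold. Sco1, another copper chaperone, Cox18, a membrane insertase, and Lrpprc, an RNA-binding stabiliser of mitochondrial messages, rose 3.74-, 2.24- and 2.12-fold. Higd1a, a hypoxia-induced partner of complex IV, rose 16.6-fold with hypoxia in growth medium, from 11.2 and 12.8 to 199.6 and 198 FPKM (3.95, adjusted p = 1.32e-05), and 7.37-fold in differentiation medium. Pet117 is listed at 3.04 and 2.71 FPKM in normoxic differentiation medium and at or near 0 elsewhere, and its other values are smaller than 1 fragment can give, so no fold is stated.

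Likeness over libraries is a description only, since the 8 points share groups and libraries. Cox6a2 and Cox7a1 had a Pearson's r of 0.961 on the log2 scale, Cox8b and Cox7a1 0.734, and Cox8b and Cox6a2 0.731. Cox6a1 had -0.656 with Cox6a2, -0.696 with Cox7a1 and -0.613 with Cox8b. Among 7687 other genes with at least 10 FPKM in their highest group, the patterns most like Cox6a2 were those of Nars and Gars, cytosolic tRNA synthetases, with r of 0.9973 and 0.9956. Nars averaged 42.8 FPKM in normoxic and 77.6 in hypoxic growth medium, then 282 in normoxic and 106 in hypoxic differentiation medium, the same order as Cox6a2. Cox8b was most like Rpf2 (0.9996), a ribosome assembly factor, and Dusp27 (0.9984), a muscle pseudophosphatase. Cox7a1 was most like Fam175a (0.9951) and Nop14 (0.9916), and Cox6a1 like Ppp2r1a (0.9940) and Rnf187 (0.9910). For Cox4i1 they were H2-Ke6 (0.9895) and Exosc4 (0.9877), for Cox7a2 Timm22 (0.9902) and Hnrnpab (0.9888), and for Cox8a Naa60 (0.9911) and Ap2a1 (0.9843). The values of 0.8573 (Gnl1) and 0.8506 (Trim27) for Cox4i2 rest on its 15 fragments and carry no information on it.

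In order of level, Cox6a2 and Cox7a1 were highest after differentiation in normoxia, followed by differentiation in hypoxia, growth in hypoxia and growth in normoxia. The middle groups overlapped for Cox7a1 (5.66 and 13.6 against 6.06 and 8.35 FPKM) and not for Cox6a2. For Cox8b the order was normoxic differentiation, normoxic growth and then both hypoxic groups, which did not differ beyond 2 fragments. For Cox6a1 it was hypoxic differentiation, normoxic growth, hypoxic growth and normoxic differentiation, with no overlap between neighbours. Genes whose annotated spans overlap a member could lend it fragments. Itgad, which overlaps Cox6a2, did not pass 0.0452 FPKM. Tmem30a, which overlaps Cox7a2, ranged from 26.1 to 38.6 FPKM and Bcl2l1, which overlaps Cox4i2, from 9.64 to 19.8, and any exchange of fragments with them was not tested.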

How the data were processed

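RNA-seq expression was measured in 8 libraries, 2 for each of 4 groups taken from the labels. The authors deposited 1 gene table in FPKM, and per the submitters' processing notes the tools were STAR 2.5.1b and Cufflinks 2.2.1 with the mm9 build. How strand and multiply mapped fragments were treated is not given in the sources used here, so fragments of copies of a gene could be shared. FPKM of short transcripts also rests on the length correction, which the ratio within a pair inherits.

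Values were tested as log2(FPKM + 1) with limma 3.58.1 (R 4.3.3), an intensity trend and 4 group means, over the 12389 genes whose mean reached 1 FPKM in any group. P-values were adjusted by the Benjamini-Hochberg method over those genes in each of 5 contrasts, two-sided, with a threshold of 0.05. The 8 libraries leave 4 residual degrees of freedom. Each p-value sets a change against the spread between libraries A and B, pooled over the 4 groups and moderated toward the trend of all genes. An SE is therefore not the spread of the compared groups alone. Pair ratios used a pseudocount of 0.1 FPKM, and isoform shares are the percent of the summed FPKM of the pair. Fragments were recovered for 4 members as whole multiples of a step (tolerance 0.05), from a relative depth of 0.633 to 1.00, and the level of detection is 3 fragments. Counting intervals are exact at 95%. The fit was also run on simulated log2 values in which few genes changed. That setting does not show how the fit behaves where many genes change, as in these contrasts.

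The members, the lists of complex IV subunits, assembly factors, COX4 regulators and cell markers (skeletal muscle, proliferation, hypoxia response, adipocyte, cardiac, macrophage, endothelial) and the rule for named genes were chosen with earlier results of these data known. Named are the 8 members, the listed genes described, assembly factors called with a log2 change of at least 1 and, per member, the 2 genes of highest correlation, leaving out small RNA and Gm genes. Alternatives tried were other pseudocounts, filters, scalings, moderation, weights, a replicate block and each library left out.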

Additional observations from a re-analysis of the deposited data

Results flagged for a closer look

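The change with differentiation differed between oxygen levels for 6 of the 7 tested members by limma's interaction term, beside 35.4% of all tested genes with a positive and 18.7% with a negative call. The log2 interaction was -7.34 for Cox6a2, -5.22 for Cox8b and -4.43 for Cox7a1, with each library of hypoxic differentiation medium below each of normoxic differentiation medium. It was 2.61 for Cox6a1, 0.89 for Cox8a and 0.39 for Cox7a2. The value for Cox7a2 lost its call under both other scalings. Groups of 2 libraries are too small for a search for outlying libraries.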

How the results depend on the processing

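Across 657 alternatives for the 35 member changes, 620 kept direction and side of the threshold, 29 lost a call, 4 gained one and 4 changed sign, all 4 of changes that were not called. Those 4 were Cox4i1 with differentiation in hypoxia under upper-quartile scaling (-0.04), Cox8a with hypoxia in differentiation medium under median-of-ratios scaling (-0.06), Cox7a2 with differentiation in normoxia (-0.05 to 0.09 with a library left out) and Cox7a1 with differentiation in hypoxia (-0.29 to 0.85). The cause of these shifts was not tested. Requiring a log2 change of at least 1 left 2 members called for differentiation in hypoxia and 3 for hypoxia in growth medium, since small changes are then dropped. Leaving out a library gave 1 to 5 called for differentiation in hypoxia. A group left with 1 library is assumed to vary like the others. No pairing of libraries by replicate letter was visible, as A minus B correlated between groups at -0.166 to 0.042. The labels do not say whether libraries of the same letter were run together. With a replicate block, 4 members in place of 5 were called for differentiation in normoxia, Cox8a being lost (-0.34, adjusted p = 0.0575), and the counts of the other contrasts stayed at 4, 7, 5 and 6.

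Pair ratios changed sign for Cox4i2 and, with differentiation in hypoxia, for the 3 muscle isoforms. For Cox4i2 over Cox4i1 the change with hypoxia in differentiation medium was 0.35 and 0.46 with pseudocounts of 0.5 and 1 and -0.75 to 0.42 with a library left out, and the interaction was 0.04, 0.07 and -0.84 to 0.40. In growth medium the hypoxia change was -0.57 to 0.68. With differentiation in hypoxia and a library left out, the Cox6a2 ratio changed by -0.26 to 0.56, the Cox7a1 ratio by -0.67 to 0.46 and the Cox8b ratio by -0.46 to 2.63, or by -0.10 with a pseudocount of 1, against 1.08 with 0.1, resting on 0 to 2 fragments a library. Counting Cox7a2l with Cox7a2 as the ubiquitous partner lowered the Cox7a1 share to 17.1% in normoxic and 2.53% in hypoxic differentiation medium and to 2.09% in hypoxic growth medium, a larger denominator by construction. Depth limits Cox4i2 throughout and Cox6a2 and Cox7a1 in normoxic growth medium, where libraries held at most 4, 2 and 9 fragments, and Cox8b in hypoxia, with at most 2.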
